A study of Mus musculus with 6 samples.

Results

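The CCN genes encode secreted matricellular proteins, which bind the extracellular matrix and cell surface receptors and alter how cells adhere, migrate and respond to growth factors without forming the scaffold of the matrix. Members were chosen by symbol in the deposited gene table as Cyr61, Ctgf, Nov, Wisp1 and Wisp2, which are also called Ccn1 to Ccn5, and all 5 were found among its 53797 genes. The RNA came from MLO-Y4 cells, a murine osteocyte-like cell line, cultured in α-MEM with FBS on collagen-coated six-well dishes. In the LIPUS group, 3 cultures received low-intensity pulsed ultrasound for 20 min at 30 mW/cm2 and 1.5 MHz, and in the Control group 3 untreated cultures shared a plate with treated ones, over transducers that were not connected. RNA was extracted 30 min after the stimulation. The comparison asks how osteocytes answer an ultrasound stimulus of the kind used on fractures.

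The labels number 3 cultures per group, and the sources differ on whether these came from independent repeats of the experiment. Each group is held as a single FPKM per gene (the number of sequenced fragments of a gene, scaled to its exonic length in kilobases and to the mapped reads of the library), pooled over its 3 cultures, with no value for a single culture. No SD, standard error or p-value is therefore given, and a difference between the groups cannot be set against the spread between cultures. The study describes a control culture that lay apart from the other controls, and a pooled value does not allow it to be left out. The sequencing depth of each library cannot be read from FPKM. Of all genes, 37321 were listed at 0 in both groups and 11999 reached an FPKM of at least 1 in at least 1 group, and the latter serve here as the background. Log2 ratios are LIPUS over Control on FPKM + 1, so a positive value is higher with LIPUS. Their median over the background was -0.00038, and the middle 95% lay between -0.93 and 0.93.

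CCN proteins share a modular build, with an insulin-like growth factor binding protein (IGFBP) module, a von Willebrand factor type C module, a thrombospondin repeat and, in most members, a cystine knot at the C terminus. Cyr61 and Ctgf are classical targets of mechanical load and of the transcriptional coactivators YAP and TAZ, and both are made in the fracture callus. In bone, members of the family act on osteoblasts, chondrocytes and vessels through integrins and heparan sulphate proteoglycans.

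The kinship of the genes is visible in their coding sequences. The 60-base stretch below is the gap-free window with the most identical positions in an alignment of all 5 coding sequences, and it is shown because it is where the family as a whole is most alike. It lies in the thrombospondin repeat, begins at coding base 699 in Cyr61, 612 in Ctgf, 627 in Nov, 666 in Wisp1 and 603 in Wisp2, and is written in lower case with the 30 positions common to all 5 in capitals. The sequences were taken from GENCODE M21 transcripts of GRCm38.
Cyr61: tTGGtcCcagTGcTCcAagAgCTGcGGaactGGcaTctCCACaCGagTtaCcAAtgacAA
Ctgf: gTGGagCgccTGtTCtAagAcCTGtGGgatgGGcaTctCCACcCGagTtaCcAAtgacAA
Nov: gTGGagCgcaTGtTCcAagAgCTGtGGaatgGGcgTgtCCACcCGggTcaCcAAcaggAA
Wisp1: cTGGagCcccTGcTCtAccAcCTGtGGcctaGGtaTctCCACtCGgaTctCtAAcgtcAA
Wisp2: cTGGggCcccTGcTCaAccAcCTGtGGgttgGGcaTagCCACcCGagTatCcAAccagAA

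Over the whole coding sequences, identity between pairs ranged from 50.5% (Cyr61 and Wisp1) to 59.9% (Ctgf and Nov), and Cyr61 and Ctgf were 56.0% identical. The longest exact run shared by the transcripts of any pair was 28 bases, between Ctgf and Nov, and between Cyr61 and Ctgf it was 18 bases. No run of 100 bases, the length of a read, occurred in the transcripts of more than 1 member. Wisp2, which lacks the cystine knot, had the shortest coding sequence at 753 bases, against 1044 to 1137 bases in the other members, and its coding part spans 4 exons where theirs spans 5. The annotation holds 1 transcript for Cyr61 and for Nov, 3 for Ctgf, 6 for Wisp1 and 2 for Wisp2, and a gene's FPKM covers all of them.

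Ctgf and Cyr61 were both higher in LIPUS-treated cells, Wisp2 was nearly level, Wisp1 was somewhat lower, and Nov was close to absent from the table. Ctgf, which encodes connective tissue growth factor, was the most abundant member, with an FPKM of 1271 in Control and 2375 in LIPUS, a log2 ratio of 0.90. The FPKM of Cyr61, an immediate early gene that encodes a heparin-binding integrin ligand, was 269 in Control and 523 in LIPUS, a log2 ratio of 0.96. These correspond to 1.87-fold and 1.95-fold higher levels on the linear scale.

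**Figure D1:**
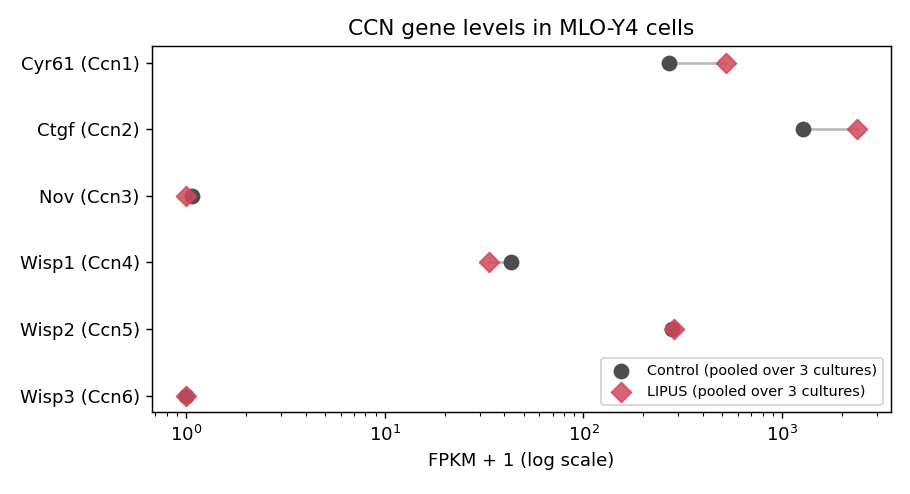
Level of each CCN gene in the 2 groups, as FPKM + 1 on a log axis, with grey circles for Control and red diamonds for LIPUS, each pooled over 3 cultures. The symbols are apart for Cyr61 and Ctgf, in the opposite order for Wisp1, nearly on top of each other for Wisp2, and at the left edge for Nov and Wisp3, which is listed at 0 in both groups.

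The other members did not share this pattern. Wisp2, expressed in osteoblasts and fibroblasts, had an FPKM of 277 in Control and 283 in LIPUS, a log2 ratio of 0.03. Wisp1, a gene induced by Wnt signalling that is active in bone-forming cells, had an FPKM of 42.2 in Control and 32.3 in LIPUS, a log2 ratio of -0.37. Nov, whose product restrains osteoblast differentiation, was at 0.0697 in Control and listed at 0 in LIPUS, so that no ratio is given. The remaining gene of the family, Wisp3 (Ccn6), was listed at 0 in both groups. The status column of the deposited table, which marks genes with enough alignments for the authors' comparison, was OK for 4 of the 5 members and NOTEST for Nov.

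Because FPKM is scaled by transcript length, the levels of the members can be set side by side. In Control the order was Ctgf, Wisp2, Cyr61, Wisp1 and Nov, and in LIPUS Cyr61 stood before Wisp2. Wisp2 and Cyr61 were near each other in Control, with a ratio of Wisp2 to Cyr61 of 1.03, and apart in LIPUS, with a ratio of 0.541. Without replicate values it cannot be said whether neighbours in this order differ beyond their spread. Among all listed genes, Ctgf took place 55 by FPKM in Control and place 21 in LIPUS, and Cyr61 place 312 and place 183. Wisp2 took place 303 in Control and 321 in LIPUS, and Wisp1 place 2307 and 2988.

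The FPKM summed over the members was 1858 in Control and 3214 in LIPUS, 1.73-fold higher. Ctgf and Cyr61 accounted for 82.8% of the sum in Control and for 90.2% in LIPUS, while the other 3 genes together had 319 FPKM in Control and 315 in LIPUS. The difference in the family's sum thus lay in Ctgf and Cyr61. The share of Ctgf alone was 68.4% in Control and 73.9% in LIPUS, and that of Wisp2 14.9% and 8.81%. Ctgf exceeded Wisp1 30.1 times in Control and 73.4 times in LIPUS. Ctgf and Cyr61 kept nearly the same proportion to each other, with 4.73 times as much Ctgf as Cyr61 in Control and 4.54 times in LIPUS. As a share of the FPKM of all genes, the family had 0.311% in Control and 0.521% in LIPUS.

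**Figure D2:**
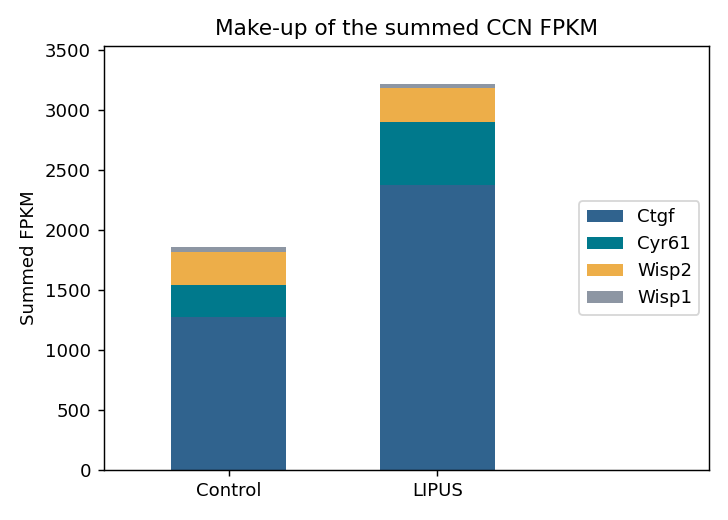
Summed FPKM of the CCN genes in Control and LIPUS, stacked by gene, on a linear axis from 0, with Nov too low to draw. The bar is 1858 in Control and 3214 in LIPUS, and the blue and green parts, Ctgf and Cyr61, hold the difference.

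To see how far these ratios lie from those of other genes, members at least 1.5-fold apart between the groups on FPKM + 1 were counted. Of the 4 members with an FPKM of at least 1 in a group, 2 (Cyr61 and Ctgf) were at least 1.5-fold higher with LIPUS, against 6.70% of all genes of the background, and 0 were at least 1.5-fold lower, against 6.79%. Genes of low FPKM scatter more, so the share was also taken over 952 genes with a mean FPKM of at least 100, where 3.05% were at least 1.5-fold higher. With so few members these counts are a description and not a test. Among the 896 genes with an FPKM of at least 100 in both groups, Cyr61 took place 5 and Ctgf place 6 from the top by log2 ratio. By the difference in FPKM, Ctgf was higher with LIPUS by 1105, the third largest among all genes.

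**Figure D3:**
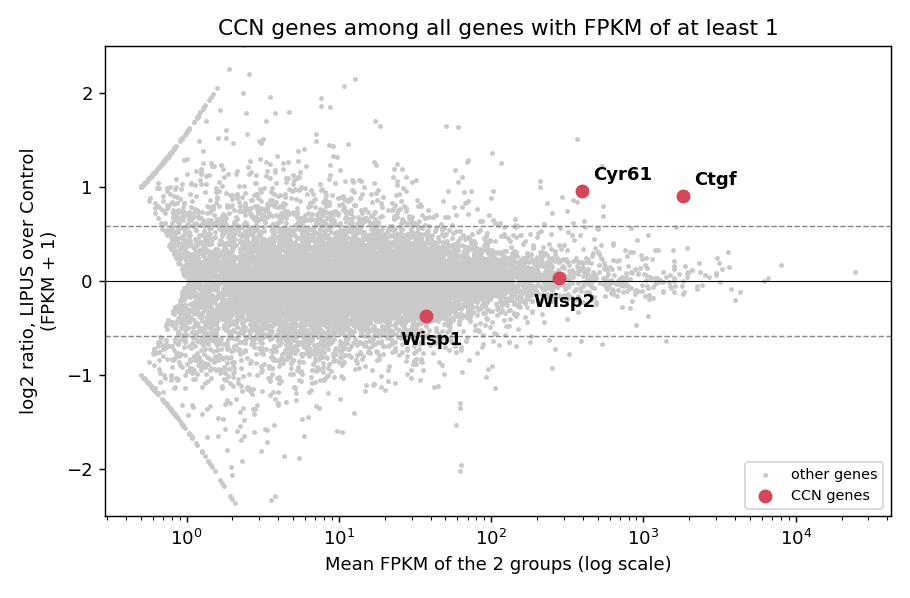
Log2 ratio of LIPUS over Control (FPKM + 1) against mean FPKM on a log axis for genes with an FPKM of at least 1 in a group, as grey points, with the CCN genes in red and dashed lines at 1.5-fold. Cyr61 and Ctgf lie above the upper line on the right, where few grey points do, and Wisp1 and Wisp2 lie between the lines. The axis ends at 2.5 on either side, and 31 genes lie beyond it.

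A closer view compared each member with the genes of like level, whose mean FPKM lay within 2-fold of its own. The log2 ratio of Ctgf, 0.90, was above that of every one of the 79 genes of like level, of which the middle 95% lay between -0.20 and 0.36. Cyr61, at 0.96, was above the corresponding range of -0.34 to 0.81 among 346 genes, 5 of which were as high. Wisp1, at -0.37, was inside the range of -0.61 to 0.60 of its 3355 genes, with 245 as low. Wisp2, at 0.03, was near the median of its 498 genes, which was 0.06. The 2 members with the high ratios thus stood at the upper end of genes of their own level, while Wisp1 and Wisp2 did not stand apart.

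**Figure D4:**
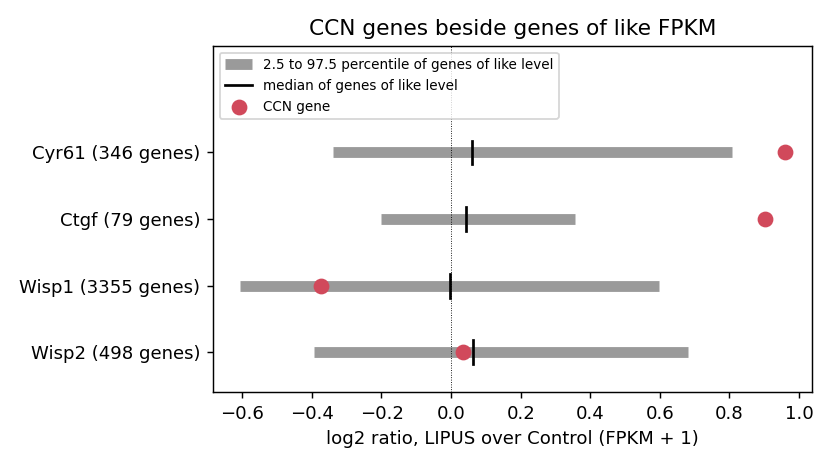
Log2 ratio of LIPUS over Control (FPKM + 1) of each CCN gene, as a red point, beside the middle 95% (grey bar) and the median (black line) of the genes whose mean FPKM was within 2-fold of its own, with their number in brackets. The points of Cyr61 and Ctgf lie to the right of their bars, and those of Wisp1 and Wisp2 lie on them.

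The number of fragments behind these values can be approximated by multiplying FPKM by the annotated exonic length in kilobases, which undoes the scaling to length and keeps that to library size (FPM). For Ctgf (2861 bases) this came to 3635 FPM in Control and 6795 in LIPUS, and for Cyr61 (2019 bases) to 543 and 1056. Wisp1 (5565 bases), despite its lower FPKM, still had 235 and 180. For Nov (2869 bases) it was 0.200 in Control. The levels of Cyr61, Ctgf, Wisp1 and Wisp2 therefore rest on far more fragments than that of Nov, of which it can be said only that it was barely detected.

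In GRCm38, Cyr61 lies on chromosome 3 from 145646976 to 145649981 on the minus strand, Ctgf on chromosome 10 from 24595442 to 24598683, Nov on chromosome 15 from 54745702 to 54754039, Wisp1 on chromosome 15 from 66891320 to 66923201 and Wisp2 on chromosome 2 from 163820861 to 163833146, the last 4 on the plus strand. Nov and Wisp1 share a chromosome but are 12.1 Mb apart. Ctgf is overlapped on the opposite strand by Gm15270, a noncoding transcript, over 665 exonic bases, which are 23.2% of the exonic length of Ctgf. The FPKM of Gm15270 was 0.342 in Control and 2.85 in LIPUS, or about 0.703 and 5.84 FPM, against 3635 and 6795 for Ctgf. The libraries were stranded, but whether the FPKM used the strand is not given in the sources used here. Reads of the overlap can therefore not be assigned to either gene. Gm15270 was also higher with LIPUS, with a log2 ratio of 1.52 from low values. Whether its value includes reads of Ctgf was not tested. The start of Cyr61 lies 331 bases from that of Gm17501, a long noncoding RNA on the opposite strand, whose FPKM was 10.5 in Control and 14.2 in LIPUS.

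A promoter sequence was at hand for Cyr61 alone of the 5 genes, in the RefSeq table for GRCm38.p6. It is shown because Cyr61 had the highest log2 ratio of the family and is a known target of TEAD, the DNA-binding partner of YAP and TAZ. The stretch is chr3:145649936-145650235 on the minus strand, from 250 bases before to 50 bases after the annotated start, with capitals for matches to the TEAD motif GGAATG (on the opposite strand), the core TGACGT of the cyclic AMP response element (opposite strand) and the TATA motif TATAAA, in this order.
Cyr61 promoter: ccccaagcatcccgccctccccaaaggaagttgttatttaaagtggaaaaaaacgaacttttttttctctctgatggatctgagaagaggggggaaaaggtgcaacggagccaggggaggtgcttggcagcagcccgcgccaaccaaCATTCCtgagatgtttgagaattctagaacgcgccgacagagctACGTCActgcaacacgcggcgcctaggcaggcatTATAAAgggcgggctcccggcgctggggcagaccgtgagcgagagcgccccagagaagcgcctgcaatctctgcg

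Each of these motifs occurred once, at bases -103 to -98, -59 to -54 and -25 to -20 counted from the start. Both strands were searched and the matches do not overlap. Of 32851 promoters of the same length, 14.7% held GGAATG, 7.51% TGACGT and 13.6% TATAAA, so matches of this kind are frequent. The AP-1 motif TGANTCA, the full motif TGACGTCA (which contains the core), the Smad motif GTCTAGAC, the Egr motif GCGTGGGCG and the CArG box of serum response factor (SRF) were not found in this window.

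The regulators that Cyr61 and Ctgf answer to were described from gene lists. Of 18 genes of the YAP/TAZ and Hippo pathway, 0 were at least 1.5-fold higher or lower, against 6.70% and 6.79% of all genes, and their median log2 ratio was -0.14. With a pseudocount of 0.1, 1 was lower, and with none 1 was higher and 1 lower. Yap1 had a log2 ratio of -0.29, Wwtr1, which encodes TAZ, one of 0.24, and the TEAD factors ranged from -0.54 (Tead4) and -0.53 (Tead1) over -0.36 (Tead3) to 0.45 (Tead2). In FPKM, Yap1 had 34.7 in Control and 28.2 in LIPUS, and Wwtr1 31.9 and 37.8, while Tead2 was low at 2.48 and 3.75. Vgll4, whose product competes with YAP for TEAD, was at -0.48. Other targets of YAP and TAZ lay on both sides of 0. Of 19 such genes with an FPKM of at least 1 in a group, 3 were at least 1.5-fold higher and 2 lower, against 6.70% and 6.79% of all genes, with a median log2 ratio of 0.15. F3, which encodes tissue factor, had an FPKM of 9.41 in Control and 18.8 in LIPUS, while Amotl2, a YAP-binding angiomotin, had 219 and 139. The largest distance in this list was that of Gadd45a (log2 ratio -1.06). Gadd45a was low, with an FPKM of 6.02 in Control and 2.36 in LIPUS, and had status NOTEST. The kinase gene Nuak2 was at 0.70, and Ankrd1, a common reporter of YAP activity, was at 0.37.

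SRF and its coactivators MRTF drive Cyr61 and Ctgf as well, together with genes of the contractile cytoskeleton. Of 16 genes of this list, 3 were at least 1.5-fold higher and 0 lower, against 6.70% and 6.79% of all genes, with a median log2 ratio of 0.25. With a pseudocount of 0.1 or none, 2 were lower. The 3 genes were Myl9 (log2 ratio 1.64), Acta2 (1.24) and Tagln (1.24), which encode proteins of smooth muscle filaments, and all had larger ratios than Cyr61. The FPKM of Myl9 was 28.8 in Control and 91.9 in LIPUS, that of Acta2 4.81 and 12.7, and that of Tagln 10.1 and 25.1. All 3 were thus lower in FPKM than Cyr61 in both groups, and genes of low FPKM scatter more. On the FPKM + 1 scale, the factors themselves were less than 1.5-fold apart, with Srf at 0.10, Mkl1 at -0.39 and Mkl2, which is low at an FPKM of 5.29 in Control and 3.39 in LIPUS, at -0.52.

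TGF-beta is an inducer of Ctgf in many mesenchymal cells. Of 15 genes of TGF-beta signalling, 0 were at least 1.5-fold higher or lower, with a median log2 ratio of 0.15, and with shares of 6.70% and 6.79% over all genes a count of 0 is near the background. The ligands Tgfb1, Tgfb2 and Tgfb3 had log2 ratios of 0.18, -0.10 and 0.34, and the receptors Tgfbr1 and Tgfbr2 0.40 and 0.11. The lowest value of the list was that of Smad2, at -0.55, and the repressor gene Tgif1 was at 0.42.

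Early response genes, to which Cyr61 belongs by its fast induction in other cells, had the highest median of the lists at 0.55. Of 18 genes, 8 were at least 1.5-fold higher, against 6.70% of all genes, and 0 lower, against 6.79%, or 1 lower with no pseudocount. The list was chosen with earlier results of these data known, and the study names several of its genes as responsive to LIPUS. The count is therefore a description and not independent support. The ratios of Egr2 (1.36), Egr3 (1.25), Fosb (1.18) and Zfp36 (1.04) were above that of Cyr61. The FPKM of Egr2 was 56.6 in Control and 147 in LIPUS. Nr4a1 (0.95), Egr1 (0.83) and Junb (0.70) were below it, as were, among others, Ier3 (0.61), Fos (0.54) and Ier2 (0.14). Egr1, a zinc finger factor, had an FPKM of 166 in Control and 296 in LIPUS. Atf3 was at -0.47, with a low FPKM of 5.58 in Control and 3.75 in LIPUS. The high ratio of Cyr61 was thus shared by some of these genes and not by others. The 12 reference genes had a median of 0.04, with 0 at least 1.5-fold apart.

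**Figure D5:**
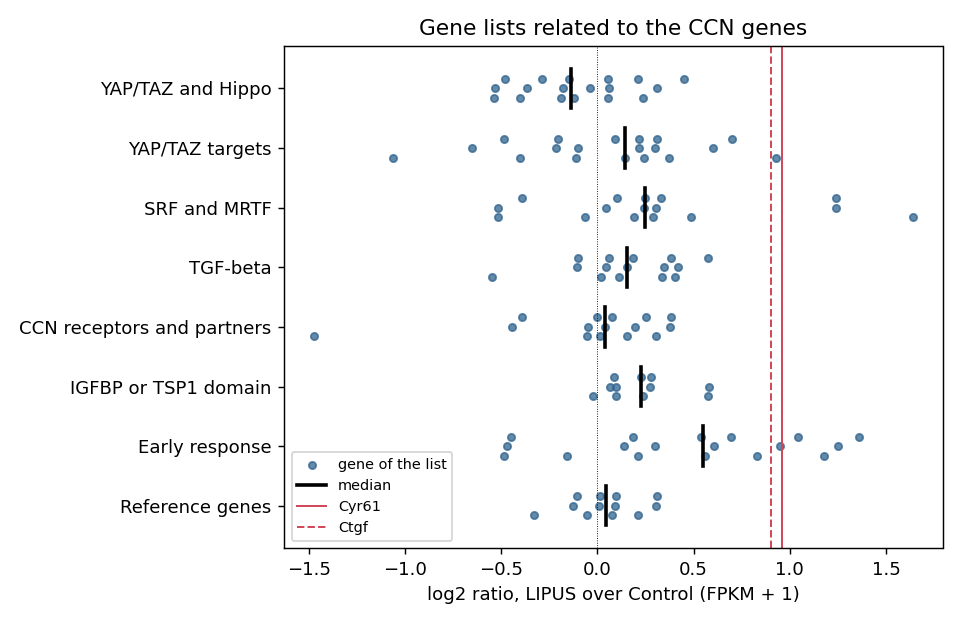
Log2 ratios of LIPUS over Control (FPKM + 1) of the genes of 8 lists, as blue points for genes with an FPKM of at least 1 in a group, with the median of each list as a black line and the values of Cyr61 (solid) and Ctgf (dashed) as red lines. Points at or beyond the red lines occur mainly among the early response genes and the SRF and MRTF genes, and the medians of the lists other than the early response genes lie between -0.14 and 0.25.

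Whether the cells carry receptors for CCN proteins was read from 19 receptors and binding partners, of which 15 reached an FPKM of 1. None was at least 1.5-fold higher, and 1, the leukocyte integrin chain Itgb2, was lower, with an FPKM of 3.97 in Control and 0.790 in LIPUS. With 6.70% of all genes higher and 6.79% lower, these counts are near the background. Integrin alpha 5 (Itga5) had an FPKM of 545 in Control and 709 in LIPUS, a log2 ratio of 0.38, and the heparan sulphate proteoglycan Sdc4 259 and 338, also 0.38. Itgb3, the chain with which integrin alpha V binds Cyr61, was at -0.39, and Fgf2, a binding partner, at -0.44. Of genes whose proteins share the IGFBP module or the thrombospondin repeat with CCN proteins, 11 of 17 reached an FPKM of 1 and 0 were at least 1.5-fold apart, also near the background. The highest were Igfbp5 (0.58) and Htra1 (0.57), followed by Adamts1 (0.28) and Htra3 (0.27).

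The genes nearest to a member in both groups were found by the Euclidean distance over the log2 of FPKM + 1, which has only 2 values per gene. Nearest to Cyr61 were Arc (distance 0.17), Phlda1 (0.26) and Mmp13 (0.26), with log2 ratios of 0.84, 0.64 and 0.86. Among those nearest to Ctgf were Myl6 (0.43) and Ftl1 (0.46), with log2 ratios of 0.35 and 0.33.

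The label of the cells was checked against markers. Of 7 osteocyte markers, Pdpn (295 FPKM in Control and 402 in LIPUS) and Gja1 (176 and 170) were abundant, Dmp1 was low (3.04 and 7.65), Phex was under 1, and Sost, Mepe and Fgf23 were listed at 0 in both groups. Of 6 osteoblast markers 5 reached an FPKM of 1 in a group. Col1a1 (891 and 731) and Alpl (293 and 190) were abundant, Runx2 was at 24.4 and 14.8, and Sp7 was low (5.86 and 3.75). Bglap was at 0 in Control and 1.58 in LIPUS, and Ibsp was listed at 0 in both groups. The cells thus carried some markers of both types, while others of both types were at or near 0. The 4 haematopoietic markers summed to 5.32 FPKM in Control and 1.72 in LIPUS, all of it Cd68, with Ptprc at 0. The 4 endothelial markers summed to 0.496 in Control and were at 0 in LIPUS, and the 3 epithelial markers were at 0 in both. The 4 chondrocyte markers summed to 54.6 and 76.1 FPKM, most of it Sox9, with Acan at 0, the 3 adipocyte markers to 6.46 and 8.86, with Plin1 at 0, and the 3 muscle markers to 0.0658 and 0.0763, with Myod1 and Myog at 0. Whether these differences between the groups bear on the CCN genes was not tested, and in such bulk RNA fewer cells of a type cannot be told apart from less RNA per cell.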

How the data were processed

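Paired-end reads were trimmed by the authors (Trimmomatic 0.36) and placed on GRCm38 (TopHat2 2.1.0, Bowtie2 2.2.6.0), and the deposited values are FPKM from Cufflinks with Ensembl transcripts (version 2.1.1 in the submitters' processing notes, while the methods name a later one), pooled over the 3 libraries of a group in a Cuffdiff table. Its fold changes, test statistics, p-values and q-values are the authors' own comparison and were not used. Only the FPKM and the status column were read.

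Log2 ratios were computed on FPKM + 1 for genes with an FPKM of at least 1 in a group, and 1.5-fold was the threshold for counts. No test was possible with 1 value per group. The CCN genes and all gene lists were chosen with earlier results of these data known. Named genes were the members, the regulators, the members of each list with the largest ratios, the early response genes listed and the 3 genes nearest to Cyr61 and to Ctgf. Ankrd1, Itga5, Gm15270 and Gm17501 fall outside this rule, and 1 gene that it names is not reported here. Positions and transcripts came from GENCODE M21, promoters from RefSeq. Coding sequences were aligned with MAFFT 7.526. Python 3.11.15, numpy 2.4.6, pandas 2.3.3 and matplotlib 3.10.9 were used, and the ratio and count steps were tested on simulated data. Alternatives covered the pseudocount, the scaling, the minimum FPKM and the fold threshold.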

Additional observations from a re-analysis of the deposited data

How the results depend on the processing

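The log2 ratios of Cyr61, Ctgf, Wisp1 and Wisp2 kept their direction under every pseudocount and scaling tried, moving by at most 0.0101, to between 0.95 and 0.96 for Cyr61, 0.89 and 0.90 for Ctgf, -0.38 and -0.37 for Wisp1 and 0.02 and 0.03 for Wisp2. The fold threshold decided the counts. At 2-fold, 0 members were higher, since Cyr61 and Ctgf lie just under it, against 2.16% of all genes, and at 1.2-fold 2 members were higher, against 19.7%, and 1, Wisp1, was lower, against 20.2%. Over the 8 lists together, 14 of 122 genes were at least 1.5-fold higher (11.5%, against 6.70% of all genes) and 3 lower (2.46%, against 6.79%). The 14 higher genes comprised 8 of the 18 early response genes, 3 SRF and MRTF genes and 3 YAP/TAZ target genes, and the other lists had 0. The pooled share thus rests mostly on the early response genes. At 2-fold, 7 genes of the 8 lists were higher (5.74%, against 2.16%), and at 1.2-fold 40 were higher (32.8%) and 21 lower (17.2%). The lower genes numbered 6 with a pseudocount of 0.1 (4.92%, against 9.26%), 7 with none (5.74%, against 8.91%, without genes at 0 in a group), 1 of 100 with an FPKM of at least 10 (against 3.54%) and 1 of 109 over genes with status OK (against 3.97%), an alternative added after the data were seen. Of the background, 3.78% were at least 1.5-fold higher with an FPKM of at least 10 and 4.09% with status OK. Of the values per list and the background shares, 181 stayed within 1.5 times (counts and shares) or 0.1 (median log2 ratios) of the main value and 37 did not. No paired analysis was possible because each group is held as 1 pooled value, and for the same reason no culture could be left out. The table holds neither the depth nor the spread between cultures, so the stability of these ratios across cultures was not tested.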
